A study of Saccharomyces cerevisiae with 8 samples.

Results

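The response to anisomycin was followed in a yeast mutant that lacks Upf1, with 4 of the 8 libraries of the series: 2 from upf1 cultures given the solvent DMSO and 2 from upf1 cultures given the drug. They were taken by their column labels, upf1_DMSO 1 and 2 against upf1_ANS 1 and 2, and all 11966 features of the deposited table were considered. The series holds total RNA, read by strand after removal of ribosomal RNA, of Saccharomyces cerevisiae BY4741, a haploid laboratory strain. All 4 groups share the genotype MATa his3Δ1 leu2Δ0 met15Δ0 ura3Δ0, and the mutant carries in addition a kanMX4 cassette in UPF1. Cultures in mid-log phase, in YPD at 30 °C, received 100 µg/ml anisomycin (ANS) or the same volume of DMSO for 30 min. The WT DMSO and WT ANS groups, 2 libraries each, entered the estimate of the spread and served to show where the mutant response differs. The labels call the replicates biological, and whether the mutant came from more than 1 clone is not given in the sources used here.

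Anisomycin binds the large ribosomal subunit and blocks peptide bond formation, so that ribosomes stop on the mRNA. Nonsense-mediated decay (NMD) is the surveillance pathway that removes RNAs on which translation ends too early, and it needs translating ribosomes and the helicase Upf1, the product of the gene NAM7. In a upf1 mutant this route is missing from the start, so a drug that stops translation acts on cells in which NMD substrates already accumulate. Besides mRNAs, yeast makes long noncoding RNAs that are kept low by decay: Xrn1, an exonuclease of the cytoplasm, removes XUTs, the exosome of the nucleus removes CUTs, NUTs appear when the termination factor Nrd1 is lost, and SUTs are the more stable unannotated transcripts.

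To check the genotype, NAM7 (YMR080C, at 426712 to 429627 of R64 chromosome XIII) was read first. Its density was 0.0113 and 0.00975 in the upf1 DMSO libraries against 0.0210 and 0.0244 with ANS. In WT it was 0.432 and 0.449 with DMSO and 1.24 and 1.59 with ANS, so that all 4 mutant libraries lay far below all 4 WT libraries. LEU2 and URA3 had 0 to 2 reads in each mutant library. HIS3, whose his3Δ1 allele removes only part of the gene, had 325 to 754 reads there and so does not check the label. The 7 genes that mark a-cells summed to densities of 12.2 to 13.1 in upf1 DMSO and 63.6 to 67.0 in upf1 ANS, against 0.243 to 0.251 and 0.543 to 0.547 for 4 alpha-cell genes, most of it from SAG1. NAM7, LEU2, URA3 and the mating type genes thus go with the labels. The densities gave back totals of 9506394 and 10663887 in the upf1 DMSO libraries against 9654372 and 12016787 reads with ANS, and 6970361 to 9270677 in the WT libraries.

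Anisomycin raised nearly every RNA measured in the mutant when set against small nucleolar RNAs (snoRNAs). A density is the deposited value per feature, reads per nucleotide scaled per library, and the scale was found to hold snoRNAs level, although its basis is not given in the sources used here. For protein-coding genes the median density was 0.188 and 0.171 in the upf1 DMSO libraries against 0.565 and 0.507 with ANS. Of 11579 features tested, 10273 rose (88.7%) and 31 fell (0.268%) at an adjusted p under 0.05, by limma on log2(density + 0.0034) with Benjamini-Hochberg adjustment over all features. Both ANS libraries lay above both DMSO libraries in 10984 features (94.9%) and below them in 84 (0.725%). Among 5779 protein-coding genes 5534 rose (95.8%) and 7 fell (0.121%), with a median log2 change of 1.44. The share of reads on snoRNAs went from 5.94 and 6.22% with DMSO to 3.12 and 3.33% with ANS. In bulk RNA of this kind, a change in the number of cells and a change in RNA per cell cannot be told apart, nor can more mRNA and less snoRNA.

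A second scale therefore divides each library by the median ratio of its protein-coding genes, which moved their median change from 1.44 to -0.02. On this scale, called relative to protein-coding genes below, 1980 features rose (17.1%) and 2187 fell (18.9%). Of protein-coding genes 1393 rose (24.1%) and 1576 fell (27.3%), and past 1 log2 unit there were 259 rises (4.48%) and 197 falls (3.41%). With any 1 of the 4 upf1 libraries left out, 1151 to 1325 features rose and 1451 to 1596 fell relative to protein-coding genes. The rises were 1151 without upf1 ANS replicate 1, 1180 without upf1 ANS replicate 2 and 1280 without upf1 DMSO replicate 2, and the falls 1451 and 1452 without upf1 ANS replicate 1 and upf1 DMSO replicate 2. Of protein-coding genes, 889 rose without upf1 ANS replicate 1 and 911 without upf1 DMSO replicate 2.

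How far a gene rose went with how abundant its mRNA was. Protein-coding genes were put into 10 bins by their density in the WT DMSO libraries, which are not part of the mutant comparison. As deposited, the median log2 change in upf1 was 1.54 in the lowest bin, 1.66 in the fourth and 0.77 in the highest. Relative to protein-coding genes the medians ran from 0.31 in the lowest bin to -0.73 in the highest, where 490 of 578 genes fell (84.8%), against 21 of 578 (3.63%) in the lowest. Abundant mRNAs therefore rose less than the median protein-coding gene, although the top bin rose in median against snoRNAs. Groups of genes that are abundant in growing cells are described below with this in view, and their place in the order of abundance was not removed from their values.

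**Figure D1:**
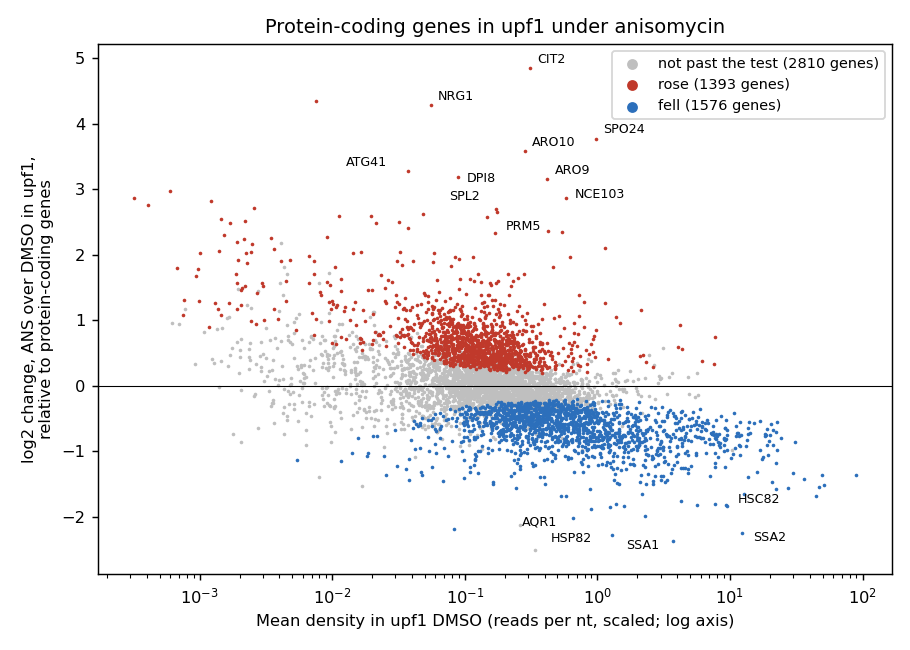
Change of each protein-coding gene under ANS in upf1, relative to protein-coding genes (y axis, log2), against its mean density in upf1 DMSO (x axis, log scale; genes with 0 density there are not drawn). Red points are the 1393 genes that rose and blue points the 1576 that fell; the blue points lie mostly to the right, and CIT2 and NRG1 stand highest among the labelled genes.

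For the genes named below, abundance was the mean density over all 8 libraries, ANS included. A gene low with DMSO could thus count as abundant through its rise. The largest rise among protein-coding genes of above-median abundance was that of CIT2 (YCR005C), a citrate synthase of peroxisomes, in the glyoxylate cycle. It is the classical readout of the retrograde pathway, by which mitochondria signal to the nucleus. Its density was 0.357 and 0.268 in the upf1 DMSO libraries against 26.3 and 24.3 with ANS. The mean density was 81.1-fold higher with the drug, which is 6.34 ± 0.22 (SE) on the log2 scale at adjusted p = 1.89e-07. Relative to protein-coding genes it was 4.85 ± 0.19 (SE). CIT2 lies on chromosome III at 120946 to 122328.

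The retrograde list, 19 genes tested, holds 11 that rose relative to protein-coding genes and 3 that fell, with a median of 0.31, where all protein-coding genes had -0.02. As deposited, 18 of the 19 rose. DLD3 (YEL071W), a lactate dehydrogenase of the same regulon, went from 1.24 and 1.06 to 14.9 and 13.1 (2.11 ± 0.07 (SE) relative to protein-coding genes). RTG3 (YBL103C), which encodes a subunit of the Rtg1-Rtg3 activator, went from 0.107 and 0.0837 to 0.659 and 0.599 (1.22 ± 0.10). The malate dehydrogenase gene MDH3 (YDL078C) rose as deposited, from 0.506 and 0.466 to 0.914 and 0.798, and fell by 0.68 relative to protein-coding genes. The risers numbered 7 without upf1 DMSO replicate 2 and 8 to 9 without any 1 of the others. The Rtg1-Rtg3 complex is known to bind the core letters GTCAC, and the stretches of the CIT2 and DLD3 promoters with the most matches are shown for that reason, with matches on either strand in capitals.
CIT2: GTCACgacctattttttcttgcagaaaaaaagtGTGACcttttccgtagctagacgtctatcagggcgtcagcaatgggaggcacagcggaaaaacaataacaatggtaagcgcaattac
DLD3: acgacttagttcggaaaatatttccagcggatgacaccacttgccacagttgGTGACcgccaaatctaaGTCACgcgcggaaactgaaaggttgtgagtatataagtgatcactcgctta

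The CIT2 stretch is chrIII:122554-122673 on the minus strand, 345 to 226 bases before the start codon, in R64 as given by RefSeq. The DLD3 stretch is chrV:16143-16262 on the plus strand, 212 to 93 bases before the start codon. Within 500 bases upstream, GTCAC on either strand was found in 42.4% of 5779 protein-coding genes, in 50.6% of the 259 that rose past 1 log2 unit relative to protein-coding genes and in 48.2% of the 197 that fell as far. A match describes letters and is not evidence of binding.

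Next in size, among protein-coding genes of above-median abundance, were the rises of a repressor and a sporulation gene. NRG1 (YDR043C), a zinc-finger repressor of glucose-repressed genes, went from 0.0592 and 0.0515 to 3.38 and 2.92, which is 5.74 ± 0.16 (SE) on the log2 scale at adjusted p = 1.14e-07. SPO24 (YPR036W-A), a small gene of sporulation, went from 1.06 and 0.905 to 36 and 39.8 (5.27 ± 0.19). In both genes the 2 ANS libraries lay far above the 2 DMSO libraries, and groups that do not overlap were required by the rule that chose them.

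Aromatic amino acid breakdown by the Ehrlich pathway gave 2 of the 10 largest rises among protein-coding genes of above-median abundance. ARO10 (YDR380W), the decarboxylase of the pathway, went from 0.292 and 0.277 to 9.84 and 9.51, which is 5.07 ± 0.15 (SE) on the log2 scale at adjusted p = 1.14e-07. ARO9 (YHR137W), the inducible transaminase, went from 0.417 and 0.419 to 10.2 and 10.9 (4.64 ± 0.14). Its constitutive counterpart ARO8 (YGL202W) had 1.98 and 1.91 against 3.44 and 3.47, a rise as deposited but a fall by 0.67 relative to protein-coding genes. The 2 inducible steps thus rose more than the median mRNA and the constitutive transaminase less. Of 14 genes in the Ehrlich list, 4 went up (28.6%) and 6 down (42.9%) relative to protein-coding genes, and 13 rose as deposited. Over all protein-coding genes 24.1% rose and 27.3% fell. Among those that fell, PDC1 (YLR044C), the main pyruvate decarboxylase, had 52.4 and 49.7 against 47.2 and 54.8, which overlap as deposited, and was 1.5 lower relative to protein-coding genes. ADH4 (YGL256W), an alcohol dehydrogenase, had 0.561 and 0.564 against 1.06 and 0.925. ARO9 and ARO10 are activated by Aro80, which is known to bind CCG triplets 7 bases apart. The stretches with the most matches to this spacing are shown, whole matches in capitals, and the matches overlap each other in part.
ARO9: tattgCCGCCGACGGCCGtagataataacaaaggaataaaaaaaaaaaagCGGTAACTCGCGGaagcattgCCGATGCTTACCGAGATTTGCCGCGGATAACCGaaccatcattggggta
ARO10: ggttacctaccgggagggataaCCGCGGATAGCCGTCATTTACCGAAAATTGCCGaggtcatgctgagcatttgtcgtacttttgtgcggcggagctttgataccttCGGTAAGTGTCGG

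The ARO9 stretch is chrVIII:375473-375592 on the plus strand and holds 5 matches, and the ARO10 stretch is chrIV:1233854-1233973 on the plus strand and holds 4. The pattern was found within 500 bases upstream of 5.42% of all protein-coding genes, of 8.49% of those that rose past 1 log2 unit and of 10.2% of those that fell as far.

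The other rises among the 10 largest at above-median abundance covered phosphate, carbon dioxide, autophagy and cell wall genes. NCE103 (YNL036W), the carbonic anhydrase, went from 0.570 and 0.585 to 12.5 and 11.4 (log2 change 4.36 ± 0.15 (SE)). ATG41 (YPL250C), an autophagy gene, went from 0.0351 and 0.0391 to 0.951 and 1.19 (4.72 ± 0.21). NUT1459, a noncoding feature, gave 75 and 1197 reads in the DMSO and ANS libraries where ATG41 gave 74 and 1191, so that the same reads may have been counted for both. DPI8 (YJL133C-A), a small gene, went from 0.0999 and 0.0780 to 2.01 and 2.68 (4.66 ± 0.25). PRM5 (YIL117C), known as a target of the cell integrity pathway, went from 0.197 and 0.154 to 3.33 and 2.93 (4.14 ± 0.15). All 10 rose on both scales and under each alternative run, including those without any 1 upf1 library.

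SPL2 (YHR136C), an inhibitor of low-affinity phosphate uptake, went from 0.186 and 0.156 in upf1 DMSO to 3.26 and 3.08 in upf1 ANS, which is 4.19 ± 0.14 (SE) on the log2 scale at adjusted p = 1.82e-07. Of 17 phosphate genes tested, 9 rose relative to protein-coding genes and 0 fell, with a median of 0.53, and all 17 rose as deposited. PHO89 (YBR296C), a phosphate transporter with sodium, went from 0.0248 and 0.0144 to 0.377 and 0.332 (2.59 ± 0.20 relative to protein-coding genes). PHO84 (YML123C), the high-affinity transporter, went from 4.36 and 4.04 to 23.6 and 21.8 (0.93 ± 0.07). SPL2 and ARO9 are neighbours that are read away from each other, and the SPL2 stretch below, chrVIII:375185-375304 on the minus strand, ends 85 bases before its start codon. Capitals mark CACGTG, the core known for the phosphate activator Pho4, with 2 of the 4 matches within 500 bases shown. CACGTG was found upstream of 6.25% of all protein-coding genes, of 8.88% of those that rose past 1 log2 unit and of 10.7% of those that fell as far.
SPL2: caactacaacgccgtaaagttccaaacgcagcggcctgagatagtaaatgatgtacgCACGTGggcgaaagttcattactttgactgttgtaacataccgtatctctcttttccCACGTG

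**Figure D2:**
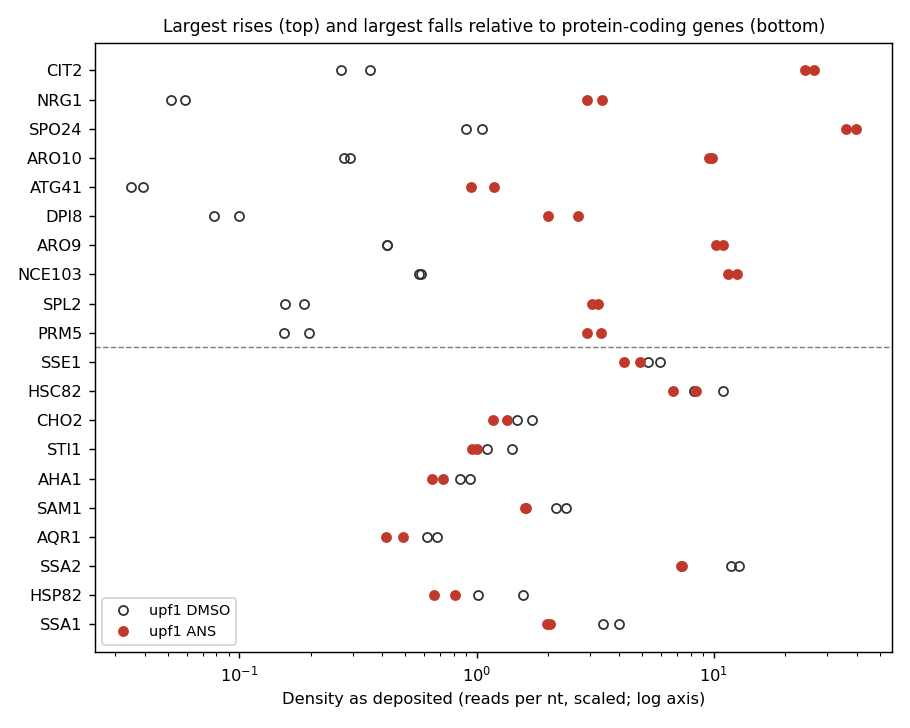
Density in each of the 4 upf1 libraries (x axis, log scale), for protein-coding genes of above-median mean density over all 8 libraries. Above the dashed line are the 10 largest risers as deposited, and below it the 10 with the largest fall relative to protein-coding genes. Open circles are DMSO and filled circles ANS; the groups lie far apart for the risers, whereas for those below the line they lie close and overlap for HSC82.

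Most genes of arginine synthesis rose on both scales. Of 10 arginine genes tested, 7 rose relative to protein-coding genes and 0 fell, with a median of 0.74, and all 10 rose as deposited. ARG4 (YHR018C), argininosuccinate lyase, went from 0.458 and 0.397 to 6.37 and 6.07 (2.36 ± 0.07 (SE) relative to protein-coding genes). ARG3 (YJL088W), ornithine carbamoyltransferase, went from 0.0401 and 0.0341 to 0.552 and 0.610 (2.41 ± 0.13). Both had ANS libraries well above their DMSO libraries. The general amino acid activator Gcn4 is known to bind TGACTC. Upstream of ARG4 there was 1 match within 500 bases, in capitals in the stretch chrVIII:141522-141641, minus strand.
ARG4: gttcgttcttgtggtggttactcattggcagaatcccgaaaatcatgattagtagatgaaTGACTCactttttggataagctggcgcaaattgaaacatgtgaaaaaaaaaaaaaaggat

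TGACTC was found upstream of 13.0% of protein-coding genes, of 23.2% of those that rose past 1 log2 unit and of 9.14% of those that fell as far. Among 43 other genes of amino acid synthesis that Gcn4 is known to act on, 10 went up (23.3%) and 19 down (44.2%) relative to protein-coding genes. Their median was -0.21, and 40 rose as deposited. Over all protein-coding genes 24.1% rose and 27.3% fell, so the share of risers was near that of all genes. LYS1 (YIR034C), of lysine synthesis, went from 0.165 and 0.140 to 1.08 and 1.19 (1.38 ± 0.11). Glutamate dehydrogenase GDH1 (YOR375C) had 2.25 and 1.91 against 2.28 and 1.99, which overlap as deposited, and was 1.46 lower relative to protein-coding genes. LEU1 (YGL009C) of leucine synthesis, at 3 and 2.54 against 4.21 and 3.46, and the asparagine synthetase ASN2 (YGR124W), at 2.64 and 2.54 against 3.51 and 3.49, rose as deposited and fell relative to protein-coding genes.

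Permeases and nitrogen genes had shares of risers and fallers near those of all protein-coding genes, 24.1 and 27.3%. Of 20 amino acid permeases, 6 went up (30%) and 4 down (20%) relative to protein-coding genes, with all 20 up as deposited. DIP5 (YPL265W), a permease for acidic amino acids, went from 0.588 and 0.499 to 7.84 and 7.84 (2.35 ± 0.08), and BAP2 (YBR068C), for branched-chain amino acids, from 1.15 and 1.14 to 7.85 and 7.80 (1.27 ± 0.07). Of 22 genes of arginine and nitrogen breakdown, 5 rose (22.7%) and 7 fell (31.8%), while 21 rose as deposited, with 3 risers without upf1 DMSO replicate 2 or either upf1 ANS library. CHA1 (YCL064C), the serine and threonine deaminase, went from 1.57 and 1.41 to 8.90 and 7.61 (0.97 ± 0.07). Of 24 genes of sulfur assimilation and methionine, 1 rose and 10 fell, while 20 rose and 1 fell as deposited. The 1 riser was MET13 (YGL125W), from 0.0918 and 0.0916 to 0.541 and 0.645. SAM1 (YLR180W), an S-adenosylmethionine synthetase, went from 2.16 and 2.39 to 1.62 and 1.61, lower on both scales.

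The 7 a-cell genes all rose on both scales, with a median of 0.88 relative to protein-coding genes. STE2 (YFL026W), the alpha-factor receptor, went from 2.19 and 2.10 to 13.7 and 13.3 (1.16 ± 0.07 (SE)), and BAR1 (YIL015W), the protease that degrades alpha-factor, from 0.822 and 0.756 to 5.54 and 5.24 (1.27 ± 0.06). ASG7 (YJL170C) went from 0.0326 and 0.0323 to 0.454 and 0.343 (2.04 ± 0.13). The 2 ANS libraries lay above both DMSO libraries for each of the 3. In the cell cycle list 15 of 28 went up and 4 down relative to protein-coding genes, with a median of 0.30 and all 28 up as deposited. The cyclin genes PCL1 (YNL289W), from 0.275 and 0.229 to 2.21 and 2.27 (1.65 ± 0.09), and PCL2 (YDL127W), from 0.143 and 0.141 to 0.795 and 0.731 (0.92 ± 0.07), rose. So did FAR1 (YJL157C), the inhibitor that arrests cells in response to mating pheromone, from 0.406 and 0.359 to 2.46 and 1.96 (1.02 ± 0.08). The G1 cyclin gene CLN2 (YPL256C) had 0.384 and 0.371 against 0.861 and 0.785 and was 0.37 lower relative to protein-coding genes. Of 10 histone genes, 4 rose and 2 fell (9 rose as deposited), with 2 risers without any 1 upf1 library. HHT1 (YBR010W), histone H3, went from 4.25 and 3.93 to 17.8 and 17.2. How reads that match near-identical histone genes were treated is not given, so single histone values are uncertain.

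Genes of protein folding gave the largest falls as deposited among called protein-coding genes of above-median abundance whose groups did not overlap. Of 33 targets of heat shock factor and chaperones, 26 fell relative to protein-coding genes and 0 rose, with a median of -1.10, while as deposited 16 rose and 3 fell. SSA1 (YAL005C), a cytosolic Hsp70, went from 4 and 3.4 to 2.03 and 1.98, a log2 change of -0.88 ± 0.17 (SE) as deposited (adjusted p = 0.00072) and of -2.37 ± 0.10 relative to protein-coding genes (adjusted p = 2.24e-05). SSA2 (YLL024C), its close relative, went from 12.8 and 11.9 to 7.36 and 7.28 (-0.75 ± 0.15 as deposited), and HSP82 (YPL240C), an Hsp90, from 1.57 and 1.02 to 0.810 and 0.663 (-0.78 ± 0.23). In each of the 3 the ANS libraries lay below the DMSO libraries even against snoRNAs, which the rule that chose them required. SSA1 and SSA2, and HSP82 and HSC82, are near-identical pairs, and how reads shared between copies were treated is not given, so their single values are uncertain. HSC82 (YMR186W) had 10.9 and 8.24 against 8.38 and 6.72, which overlap, and was 1.83 lower relative to protein-coding genes. The Hsp90 cochaperone genes AHA1 (YDR214W) and STI1 (YOR027W) and the Hsp110 gene SSE1 (YPL106C) were 1.87, 1.84 and 1.81 lower on that scale, and none of them passed the test as deposited. YDJ1 (YNL064C), an Hsp40, was 1.65 lower. The Hsf1 pattern GAANNTTC, which describes paired GAA units, was found upstream of 19.2% of protein-coding genes, of 15.1% of those that rose past 1 log2 unit and of 23.4% of those that fell as far. The SSA1 stretch with 2 matches in capitals is chrI:141680-141799 on the minus strand.
SSA1: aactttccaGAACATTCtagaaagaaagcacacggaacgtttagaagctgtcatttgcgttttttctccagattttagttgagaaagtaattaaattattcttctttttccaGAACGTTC

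As deposited, 7 protein-coding genes fell. Among those of above-median abundance whose groups did not overlap, the 6 largest falls were those of SSA1, HSP82, SSA2, AQR1, SAM1 and CHO2. AQR1 (YNL065W), a plasma membrane drug transporter, went from 0.617 and 0.683 to 0.488 and 0.415 (-0.52 ± 0.21, adjusted p = 0.0404). CHO2 (YGR157W), of phosphatidylcholine synthesis, went from 1.72 and 1.48 to 1.35 and 1.17 (-0.34 ± 0.14, adjusted p = 0.0449). As deposited, SSA1 and SSA2 fell without any 1 upf1 library, AQR1 and SAM1 lost the call without each of the 4, CHO2 without 3 of them (not upf1 ANS replicate 1) and HSP82 without upf1 DMSO replicate 1 or upf1 ANS replicate 2. AQR1, SAM1 and CHO2 also lost it with no trend of the variance on level, and CHO2 with the replicate number as a block. Relative to protein-coding genes all 6 kept it in each of these fits.

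Most genes in other parts of protein quality control fell relative to protein-coding genes while rising against snoRNAs. Of 33 proteasome genes, 27 fell and 0 rose, with a median of -0.57, whereas 32 rose as deposited. The subunit genes PRE3 (YJL001W), RPN13 (YLR421C) and RPT6 (YGL048C) were 0.76, 0.91 and 0.83 lower, with 1.22 and 1.13 against 2.06 and 1.86 for PRE3 as deposited. Of 19 genes of the unfolded protein response and endoplasmic reticulum chaperones, 14 fell and 0 rose (16 rose as deposited), 9 to 10 without any 1 upf1 library and 9 without upf1 DMSO replicate 2. KAR2 (YJL034W), the chaperone BiP, had 4.57 and 3.99 against 3.72 and 3.41 and was 1.76 ± 0.06 lower. In the general stress list 10 rose and 13 fell of 40, with a median of 0.00 and all 40 up as deposited, and without upf1 ANS replicate 2 those counts were 3 and 9. The shares of this list that rose and fell, 25 and 32.5%, were near the 24.1 and 27.3% of all protein-coding genes. TPS2 (YDR074W), of trehalose synthesis, rose from 0.338 and 0.294 to 1.71 and 1.66 (0.92 ± 0.07). TRX2 (YGR209C), a thioredoxin, had 3.81 and 4.01 against 5.07 and 5.42 and was 1.07 lower relative to protein-coding genes.

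Most mRNAs of the translation apparatus rose against snoRNAs, but by less than the median protein-coding gene. Of 138 cytosolic ribosomal protein genes, 125 fell relative to protein-coding genes (90.6%) and 4 rose, with a median of -0.68, whereas 137 rose as deposited. RPS8A (YBL072C) had 10.3 and 10 in upf1 DMSO against 13.7 and 13.2 in upf1 ANS, a rise of 0.40 ± 0.11 (SE) as deposited and a fall by 1.09 relative to protein-coding genes. RPL21B (YPL079W) and RPL24B (YGR148C) were 1.03 and 0.91 lower on that scale. RPS9A (YPL081W), a paralogue of the subunit gene RPS9B, went the other way, from 0.746 and 0.696 to 5.81 and 4.91 (1.39 ± 0.07 relative to protein-coding genes). Most ribosomal protein genes have a near-identical copy, and the treatment of reads shared between copies is not given, which leaves the split within a pair uncertain.

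Of 40 translation factor genes, 27 fell and 1 rose, with a median of -0.60, and 34 rose as deposited. PAB1 (YER165W), the poly(A)-binding protein, had 3.90 and 3.47 against 4.54 and 4.09, and SUI1 (YNL244C), the initiation factor eIF1, 4.35 and 4.27 against 5.45 and 4.81. Both ANS libraries lay above both DMSO libraries in these 2 genes, yet the rise did not pass the test as deposited (adjusted p = 0.138 and 0.0861), and relative to protein-coding genes they were 1.27 and 1.25 lower. The riser was GCD2 (YGR083C), a subunit of the exchange factor eIF2B, from 0.269 and 0.211 to 0.921 and 0.790 (0.34 ± 0.09), a call lost without upf1 DMSO replicate 2, upf1 ANS replicate 1 or upf1 ANS replicate 2. Of 91 ribosome biogenesis genes 15 rose (16.5%) and 16 fell (17.6%), with a median of -0.06 and all 91 up as deposited. Both shares lay below the 24.1 and 27.3% of all protein-coding genes. Without upf1 ANS replicate 1 there were 3 risers and 17 fallers, without upf1 DMSO replicate 1 there were 4 and 11, and without upf1 DMSO replicate 2 there were 4 and 15. NOG2 (YNR053C), a GTPase of the large subunit precursor, was 0.93 lower and UTP15 (YMR093W), of the small subunit processome, 0.65 ± 0.10 higher. Of 22 genes of RNA polymerase III transcription, 1 went up (4.55%) and 5 down (22.7%) relative to protein-coding genes, and all 22 rose as deposited.

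Factors that deal with stalled ribosomes moved in both directions. Of 22 tested, 10 went up and 4 down relative to protein-coding genes, with a median of 0.12, and 21 rose as deposited. Over all protein-coding genes 24.1% rose and 27.3% fell. Without upf1 ANS replicate 1 there were 4 risers and 4 fallers, and without upf1 DMSO replicate 2 or upf1 ANS replicate 2 there were 5 and 4. CUE3 (YGL110C), a subunit of the complex that splits collided ribosomes, went from 0.127 and 0.114 to 0.697 and 0.559 (0.87 ± 0.09). SLH1 (YGR271W), the helicase of that complex, went from 0.131 and 0.107 to 0.590 and 0.519 (0.71 ± 0.08). RQC1 (YDR333C), of the quality control complex on the large subunit, went from 0.235 and 0.196 to 1.09 and 0.900 (0.70 ± 0.10). MBF1 (YOR298C-A), which keeps the reading frame at collisions, had 2.69 and 2.61 against 3.41 and 3.55 and was 1.10 lower relative to protein-coding genes.

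Of 35 NMD and general mRNA decay factors, 12 went up (34.3%) and 9 down (25.7%) relative to protein-coding genes, with a median of 0.11. Over all protein-coding genes 24.1% rose and 27.3% fell. As deposited all 35 rose. The risers numbered 5 to 8 without any 1 upf1 library, 5 without upf1 ANS replicate 1. NMD2 (YHR077C), the Upf2 protein, went from 0.163 and 0.130 to 0.597 and 0.483 (0.38 ± 0.11), and UPF3 (YGR072W) from 0.0539 and 0.0552 to 0.267 and 0.250 (0.72 ± 0.16). NMD2 lost its call without upf1 DMSO replicate 2 or upf1 ANS replicate 1, and UPF3 without upf1 DMSO replicate 1 or either upf1 ANS library. The decapping enzyme gene DCP2 (YNL118C) went from 0.223 and 0.202 to 0.993 and 0.881 (0.63 ± 0.07). SKI7 (YOR076C), which links the cytoplasmic exosome to ribosomes, was 0.62 higher and MOT2 (YER068W), a subunit of the Ccr4-Not deadenylase complex, 0.69 higher. XRN1 (YGL173C), the exonuclease that degrades decapped RNA and defines the XUTs, had 1.02 and 0.836 against 1.56 and 1.36 and was 0.83 lower relative to protein-coding genes.

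mRNAs known as NMD substrates all rose against snoRNAs, and 11 of 24 passed the test as falls relative to protein-coding genes. Of 24 tested, all 24 rose as deposited, beside 95.8% of all protein-coding genes. The median was 1.20, where all protein-coding genes had 1.44. Relative to protein-coding genes 4 went up (16.7%) and 11 down (45.8%), with a median of -0.29 in upf1 and of 0.45 in WT. Over all protein-coding genes 24.1% rose and 27.3% fell in upf1. The counts without any 1 upf1 library were 1 to 3 and 4 to 6, with 1 riser without upf1 DMSO replicate 2 or upf1 ANS replicate 1 and 4 fallers without upf1 DMSO replicate 2. STN1 (YDR082W), of telomere capping, had 0.390 and 0.351 in upf1 DMSO against 0.781 and 0.676 in upf1 ANS and was 0.52 ± 0.08 lower relative to protein-coding genes. FZF1 (YGL254W), a regulator of sulfite export, had 0.189 and 0.204 against 0.397 and 0.344 and was 0.58 lower. ADR1 (YDR216W), an activator of glucose-repressed genes, was 0.92 lower. In WT ADR1 was 1.17 lower, and the difference between the strains did not pass the limma test (adjusted p = 0.422). UGA3 (YDL170W), an activator of GABA use, rose from 0.146 and 0.135 to 0.939 and 0.822 (1.13 ± 0.08). The other 3 risers, named after their values were seen, were SPT10, EST2 and PPR1, at 0.38, 0.39 and 0.43.

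In 9 of the 24 substrates the drug response was lower in the mutant than in WT, and for the other 15 the difference did not pass the test. The difference between the strains, tested as the interaction term of the fit relative to protein-coding genes, was below 0 in 9 of the 24 and above 0 in 0, and 20 of the 24 had a value below 0. Over all features tested it was below 0 in 1216 (10.5%) and above 0 in 84 (0.725%). STN1 had 0.0544 and 0.0591 against 0.402 and 0.485 in WT, and its interaction was -1.74 ± 0.11 (SE) with adjusted p = 0.00172. EBS1 (YDR206W), itself a decay factor, had 0.181 and 0.175 against 0.695 and 0.917 in WT, and 0.426 and 0.411 against 1.05 and 0.910 in upf1, with an interaction of -0.72 ± 0.10 (adjusted p = 0.00584). ALR1 (YOL130W), a magnesium transporter, had 0.243 and 0.257 against 0.8 and 1.11 in WT and 0.543 and 0.498 against 1.28 and 1.10 in upf1, with an interaction of -0.50 ± 0.10 (adjusted p = 0.023). In these 3 genes the mutant started above WT and the drug brought the strains closer together. The DMSO values are part of the interaction, so this describes it and is not a separate result. CPA1 (YOR303W), whose upstream reading frame makes it a classical substrate, went from 0.912 and 0.888 to 3.08 and 3.53 in upf1, and its interaction of -0.80 ± 0.22 did not pass the test (adjusted p = 0.0606). STN1 and EBS1 kept their calls without any 1 of the 8 libraries, and ALR1 lost its call without 6 of the 8 (not WT DMSO replicate 2 or WT ANS replicate 1).

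**Figure D3:**
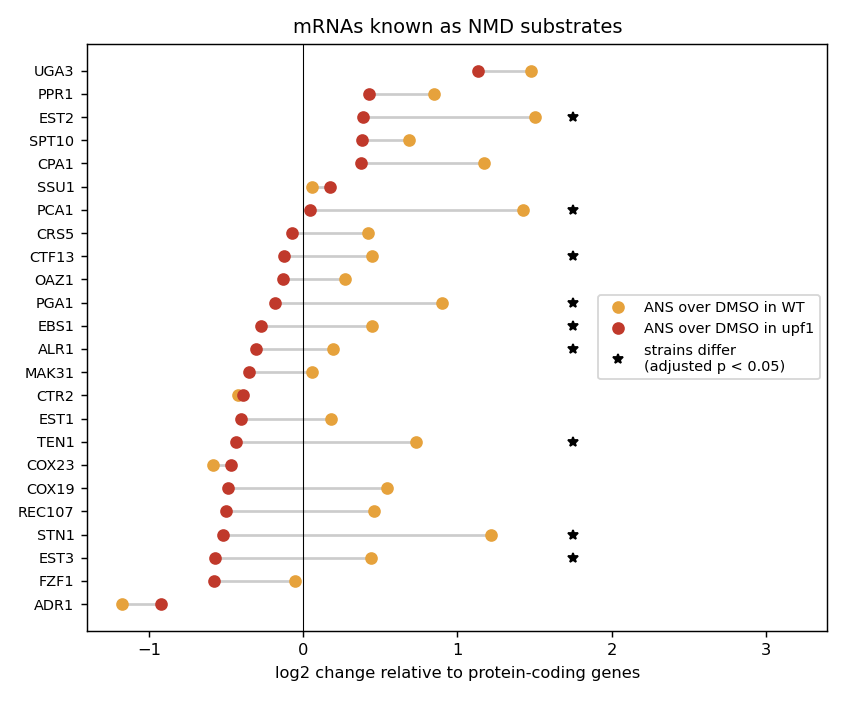
Log2 change under ANS relative to protein-coding genes (x axis) for the 24 mRNAs known as NMD substrates, in WT (orange) and in upf1 (red), joined by a line. Stars mark the 9 genes whose change differed between the strains, and in 20 of the 24 genes the red point lies to the left of the orange point.

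Noncoding RNAs were compared by class. Each class is given by its median density as a percent of the protein-coding median in the same library, which does not depend on the scale. XUTs stood at 9.38 and 9.86% in the upf1 DMSO libraries against 9.64 and 10.3% with ANS, which overlap. In WT they went from 4.21 and 4.61% to 7.64 and 7.29%. SUTs stood at 13.8 and 14.7% in the upf1 DMSO libraries against 12 and 13.1% with ANS, lower with the drug in both libraries, whereas in WT they went up from 5.81 and 6.32% to 9.06 and 8.87%. CUTs went from 5.15 and 5.89% to 6.12 and 6.5% and NUTs from 4.53 and 4.88% to 5.44 and 6.10% in upf1, both without overlap. On the log2 scale these changes were 0.05 for XUTs, -0.18 for SUTs, 0.20 for CUTs and 0.29 for NUTs, and in WT they were 0.76, 0.57, 0.14 and 0.70. With 2 libraries against 2 the exact permutation test cannot go below a two-sided p of 0.33, so that no test was made of these levels.

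**Figure D4:**
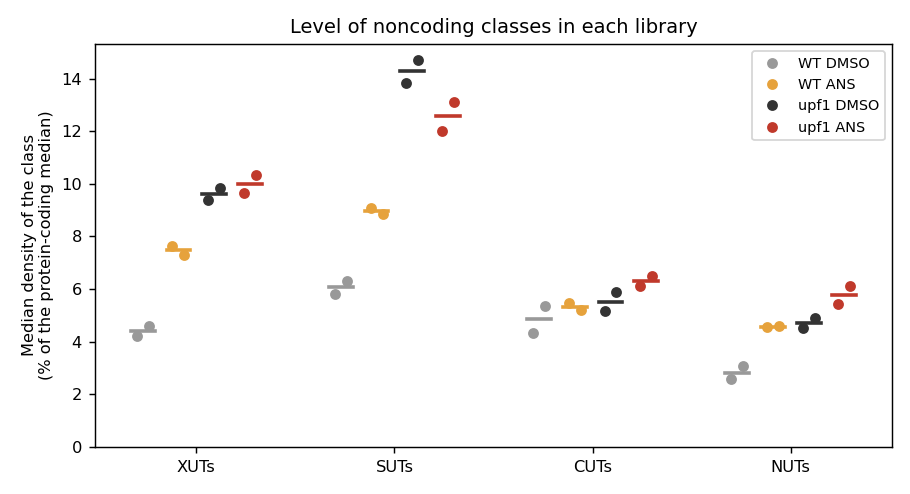
Level of 4 noncoding classes in each library, as the median density of the class in percent of the protein-coding median (y axis, from 0). Points are libraries and bars the mean of 2; XUTs and SUTs lie higher in upf1 DMSO than in either WT group, and with ANS they stay near that level in upf1 while they rise in WT.

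Single features were then counted in each class. Of 1603 XUTs tested, 1397 rose and 2 fell as deposited, and relative to protein-coding genes 146 went up and 130 down with a median of 0.03. Of 809 SUTs, 722 rose as deposited, and 54 went up and 105 down relative to protein-coding genes (median -0.15). Of 898 CUTs, 97 rose and 52 fell (median 0.15), and of 1448 NUTs, 201 rose and 89 fell (median 0.21). These shares lie below the 17.1% and 18.9% of all features, in classes whose median densities in upf1 DMSO were 0.00839 for NUTs to 0.0255 for SUTs. Each of these relative counts depended on single libraries: without 1 of the 4 upf1 libraries, XUTs had 53 to 100 risers and 35 to 52 fallers, SUTs 24 to 37 and 30 to 44, CUTs 33 to 67 and 21 to 34, and NUTs 67 to 96 and 56 to 68. The lowest counts of risers came without upf1 ANS replicate 2 in all 4 classes, and the lowest counts of fallers without upf1 DMSO replicate 2 in XUTs and SUTs and without upf1 ANS replicate 1 in CUTs and NUTs. The interaction was below 0 in 282 XUTs (17.6%), 221 SUTs (27.3%), 34 CUTs (3.79%) and 108 NUTs (7.46%), and above 0 in 4, 3, 5 and 4. Without 1 of the 8 libraries the counts below 0 were 76 to 425, 62 to 269, 4 to 76 and 11 to 160, lowest without upf1 ANS replicate 2 for XUTs, without upf1 ANS replicate 1 for SUTs and CUTs and without either for NUTs. Features of these classes often overlap one another or genes, and how a read in such an overlap was counted is not given.

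Single noncoding RNAs covered a wide range. XUT0429 had 0.00575 and 0.00244 in the upf1 DMSO libraries against 0.156 and 0.118 with ANS, from 3 reads against 56. XUT1643 went from 0.00209 and 0.00178 to 0.0607 and 0.0612, from 2 reads against 35. Both rose on both scales, and no fold is given on so few reads. SUT355 went from 0.138 and 0.116 to 1.16 and 1.05, a log2 change of 3.09 ± 0.18 (SE) as deposited, and CUT641 from 0.0134 and 0.00426 to 0.194 and 0.181 (4.07 ± 0.36). NUT0062 went from 0.00561 and 0.00504 to 0.112 and 0.0838 (3.53 ± 0.27). In the other direction, SUT485 went from 0.116 and 0.125 to 0.0480 and 0.0232 (-1.74 ± 0.33). XUT1101 had the same 828 and 128 reads, so that the same reads may have been counted for both. NUT0628 went from 0.906 and 0.918 to 0.509 and 0.627 (-0.69 ± 0.15).

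Stable noncoding RNAs were looked at one by one. The median of the 76 snoRNAs, 0.01 as deposited, is fixed by the scale, and relative to protein-coding genes 71 of them fell. None of the 6 spliceosomal RNA features passed the test as deposited: U2, LSR1, had 72.5 and 72.9 against 77.1 and 82.3, and U1, SNR19, 31.2 and 33.5 against 35.3 and 36.2. Unadjusted, 0 of the 6 had a p under 0.05. The telomerase RNA TLC1 had 1.73 and 1.65 against 1.86 and 1.80. The RNase P RNA RPR1 had 21.0 and 24.2 against 21.8 and 24.0, and the RNase MRP RNA NME1 23 and 22.1 against 24.2 and 22.3, with overlapping groups in both. SCR1, the RNA of the signal recognition particle, had 83.2 and 129 against 60.7 and 78.5, with a wide spread. Of 275 tRNA features 101 rose and 2 fell as deposited, and 5 went up and 38 down relative to protein-coding genes, 56 falls without upf1 DMSO replicate 1 and 14 without upf1 DMSO replicate 2.

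Most genes of glycolysis rose less than the median protein-coding gene or did not rise. Of 22 genes of glycolysis and fermentation, 16 fell and 3 rose relative to protein-coding genes, with a median of -1.33, and as deposited 10 rose and 0 fell. TDH2 (YJR009C), a glyceraldehyde-3-phosphate dehydrogenase with near-identical copies, had 9.19 and 9.33 against 7.36 and 7.55 and was 1.81 lower relative to protein-coding genes, and hexokinase HXK2 (YGL253W) had 7.27 and 6.80 against 7.90 and 7.48 and was 1.37 lower. ADH2 (YMR303C), the glucose-repressed alcohol dehydrogenase, rose from 0.00802 and 0.0145 to 0.184 and 0.255 (2.60 ± 0.31). Most of the pathway's mRNAs are among the most abundant of the cell. Of 18 hexose transporters and sensors, 4 rose and 7 fell (13 rose as deposited), with 1 riser without upf1 DMSO replicate 2 or upf1 ANS replicate 2. HXT3 (YDR345C), a low-affinity transporter, had 2.83 and 3.17 against 3.20 and 3.30, and RGT2 (YDL138W), a glucose sensor, rose from 0.0751 and 0.0703 to 0.362 and 0.345 (0.77 ± 0.09). Of 21 genes of glucose repression and the Snf1 pathway, 5 rose, NRG1 first among them, and 8 fell (19 rose as deposited). The fallers numbered 3 to 5 without any 1 upf1 library and 3 without upf1 DMSO replicate 1. The shares that rose and fell were 23.8 and 38.1% in this list and 22.2 and 38.9% in the hexose list. Over all protein-coding genes they were 24.1 and 27.3%.

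All 8 mitochondrially encoded genes fell relative to protein-coding genes, with a median of -1.33, and as deposited 2 rose and 0 fell. OLI1 (Q0130), subunit 9 of the ATP synthase, had 12.1 and 10.1 against 10.4 and 9.71, which overlap, and COX2 (Q0250), a cytochrome oxidase subunit, had 2.91 and 2.51 against 3.10 and 2.97. Of 40 nuclear genes of the respiratory chain and ATP synthase, 18 fell and 3 rose, with a median of -0.34 and all 40 up as deposited, and without any 1 upf1 library the risers numbered 1 to 2, 1 without upf1 DMSO replicate 1 or either upf1 ANS library. ATP3 (YBR039W) was 0.93 lower and NDI1 (YML120C), the internal NADH dehydrogenase, 0.91 ± 0.13 higher relative to protein-coding genes. Of 70 genes of the mitochondrial ribosome, 24 rose, 6 fell and 40 passed in neither direction, with a median of 0.19 and all 70 up as deposited, and the fallers numbered 0 to 3 without any 1 upf1 library, 0 without upf1 DMSO replicate 2. MRPS5 (YBR251W) rose from 0.144 and 0.131 to 0.791 and 0.716 (0.95 ± 0.07). Over all protein-coding genes 24.1% rose and 27.3% fell, beside 34.3% and 8.57% of this list. By abundance bin the share that rose ran from 3.11 to 38.1%, and the places of this list in the bins were not counted.

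Ergosterol synthesis fell in 18 of 24 genes and rose in 1 relative to protein-coding genes, with a median of -0.39, while all 24 rose as deposited. ERG20 (YJL167W), farnesyl pyrophosphate synthetase, had 1.79 and 1.60 against 2.77 and 2.32 and was 0.91 lower, and ERG5 (YMR015C), a cytochrome P450 of the late pathway, was 0.79 ± 0.09 higher. Of 30 iron genes, 10 rose and 0 fell (29 rose as deposited), and ISU1 (YPL135W), the scaffold for iron-sulfur clusters, went from 0.656 and 0.594 to 6.76 and 7 (1.96 ± 0.08). Of 22 genes of pleiotropic drug resistance, 5 rose and 10 fell (21 rose and 1, AQR1, fell as deposited), with 5 to 6 fallers without any 1 upf1 library and 5 without upf1 ANS replicate 1. TPO4 (YOR273C), a polyamine exporter, rose from 0.173 and 0.170 to 1.42 and 1.49 (1.57 ± 0.15). Of 32 autophagy genes, 9 rose and 8 fell (31 rose as deposited), with 5 of each without upf1 DMSO replicate 2 or upf1 ANS replicate 1, and ATG8 (YBL078C), the ubiquitin-like protein of autophagosomes, rose from 0.0975 and 0.0949 to 0.496 and 0.468 (0.81 ± 0.09). The shares of autophagy genes that rose and fell, 28.1 and 25%, were near the 24.1 and 27.3% of all protein-coding genes. Of 24 genes of meiosis and sporulation, 3 rose, SPO24 among them, and 1 fell, and all 24 rose as deposited. Without either upf1 DMSO library 1 rose, and without any 1 upf1 library 0 fell. The shares that rose and fell were 33.3 and 0% of iron genes and 22.7 and 45.5% of drug resistance genes. For meiosis and sporulation they were 12.5 and 4.17%.

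**Figure D5:**
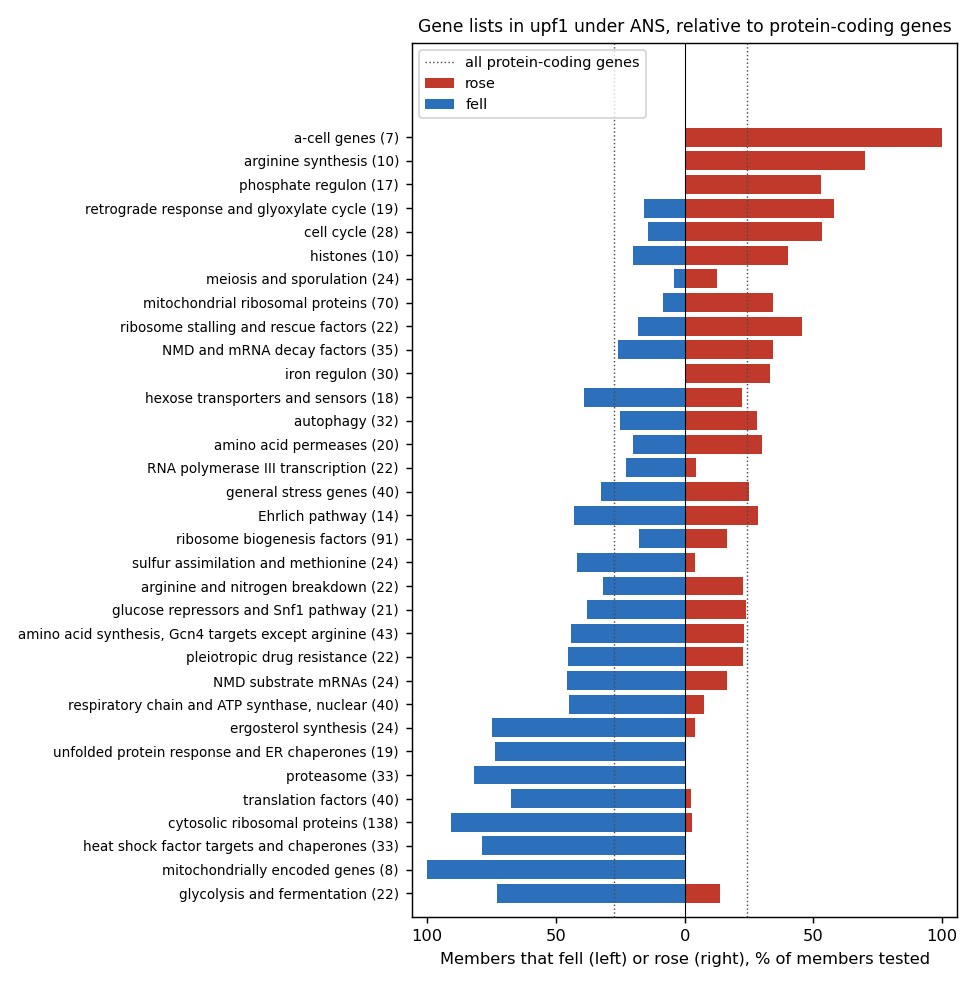
Share of each list's tested members (number in brackets) that rose (right) or fell (left) under ANS in upf1 relative to protein-coding genes, ordered by the list's median change. Dotted lines mark the shares over all protein-coding genes, 24.1 and 27.3%; on the deposited scale the lists shown falling rose or did not pass the test in most members.

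Across the 33 lists, 5 had at least 50% of their members rising (a-cell genes, arginine synthesis, the phosphate regulon, the retrograde list and the cell cycle) and 8 had at least 50% falling, relative to protein-coding genes. The first number was 3 without either upf1 DMSO library and 2 without either upf1 ANS library, and the second ranged from 7 to 9. The lists share 14 genes between them, and they were drawn up with earlier results of these data known, so their counts describe and do not test.

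Most protein-coding genes called in the mutant were called in the same direction in WT. The 2 responses share no library, but both calls used the same estimate of each gene's spread, from all 8 libraries, so they are not independent. Over 5779 protein-coding genes the log2 changes relative to protein-coding genes had Pearson's r = 0.777, a description across genes that are not independent replicates. Of the 1393 genes that rose in upf1, 1113 also rose in WT, where 1924 of the 5779 rose. Of the 1576 that fell, 1247 also fell in WT, where 1713 of the 5779 fell. For XUTs r was 0.499 over 1603 features and for SUTs 0.395 over 809, and of the 772 XUTs that rose in WT, 124 rose and 46 fell in upf1.

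Among protein-coding genes the interaction was above 0 in 61 (1.06%) and below 0 in 526 (9.1%). SPL2 responded more in the mutant: it had 0.561 and 0.550 against 5.41 and 6.19 in WT, and its interaction was 1.04 ± 0.11 (SE) with adjusted p = 0.00328, kept without any 1 of the 8 libraries. The mutant started lower and ended lower, with a larger fold. HXK1 (YFR053C), a hexokinase, had 0.616 and 0.513 against 0.249 and 0.327 in WT and 0.639 and 0.522 against 0.512 and 0.501 in upf1, so that its fall relative to protein-coding genes was smaller in the mutant by 0.99 ± 0.15 (adjusted p = 0.00948, lost without upf1 ANS replicate 2). Among protein-coding genes of above-median abundance, HXT2, MRP21, DDR48 and ICY1 followed at 0.96, 0.69, 0.68 and 0.64, and each lost its call without any 1 of the 4 upf1 libraries.

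Among protein-coding genes of above-median abundance, 6 had the largest differences in the other direction. SRL3 (YKR091W), a regulator of G1 transcription, had 0.0368 and 0.0468 against 0.841 and 1.21 in WT and 0.217 and 0.196 against 0.780 and 0.855 in upf1, an interaction of -2.35 ± 0.20 (SE) with adjusted p = 0.00262. DAL7 (YIR031C), a malate synthase of allantoin use, had 0.0425 and 0.0489 against 0.351 and 0.482 in WT and 0.607 and 0.557 against 1.11 and 0.998 in upf1 (-2.06 ± 0.12, adjusted p = 0.00172). NUT2 (YPR168W), a Mediator subunit gene unrelated to the NUT transcripts, had 0.0692 and 0.0606 against 0.535 and 0.719 in WT and 0.547 and 0.434 against 0.995 and 0.931 in upf1 (-2.03 ± 0.14). In all 3 the upf1 DMSO libraries lay above both WT DMSO libraries, as they did for the next 3. A higher upf1 DMSO value by itself lowers the interaction, so the choice of these genes favours this order. YOL014W, ISC10 (YER180C) and SLO1 (YER180C-A) followed at -2.13, -1.94 and -1.93. ISC10 and SLO1 are neighbours on chromosome V, at 549724 to 550527 and 550865 to 551122. All 6 kept their calls without any 1 of the 8 libraries.

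The counts of such differences depended on single libraries. Over all features, without 1 of the 8 libraries, 7 to 89 lay above 0 and 378 to 1548 below 0, with both lowest counts without upf1 ANS replicate 2. Without upf1 ANS replicate 1 they were 22 and 389, without upf1 DMSO replicate 1 17 and 535 and without upf1 DMSO replicate 2 25 and 461. Without WT ANS replicate 1 they were 37 and 622, without WT ANS replicate 2 38 and 734, and without WT DMSO replicate 1 50 lay above 0. As deposited, 22 lay above 0 (0.19%) and 968 below (8.36%), and of protein-coding genes 3 (0.0519%) and 372 (6.44%). By expression bin, 158 of the 526 protein-coding genes below 0 lay in the second lowest bin of WT density and 1 in the highest.

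Features annotated as pseudogenes, looked at after their values were seen, held 8 of 14 (57.1%) with an interaction below 0 and 0 above. Over all features tested the shares were 10.5% below 0 and 0.725% above. The disabled FLO8 (YER109C), whose reading frame is interrupted in this strain background, had 0.0652 and 0.0596 against 0.229 and 0.292 in WT, and 0.162 and 0.151 against 0.319 and 0.290 in upf1. Its interaction was -0.86 ± 0.13 (SE) with adjusted p = 0.00787, kept without any 1 of the 8 libraries. SDC25 (YLL016W) had 0.0364 and 0.0326 against 0.112 and 0.127 in WT and 0.129 and 0.117 against 0.220 and 0.207 in upf1 (-0.76 ± 0.17, adjusted p = 0.0296). SDC25 lost its call without any 1 of the 4 upf1 libraries or without WT ANS replicate 1, and the count of 8 was 2 without upf1 ANS replicate 1 and 3 without upf1 DMSO replicate 2. Of the 14 pseudogenes, 13 rose as deposited in upf1, while relative to protein-coding genes 1 went up and 6 down, with a median of -0.42 in upf1 and 0.76 in WT.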

How the data were processed

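Strand-specific total RNA was measured in 8 libraries, 2 for each of 4 groups. The authors deposited 1 table of signal, a density of reads per nucleotide for each of 11966 features, with group means beside the libraries. HISAT2 2.2.0, Trim Galore, DESeq2 and featureCounts 2.0.0 are the tools given per the submitters' processing notes. Which of them made the deposited signal, its scaling and the treatment of reads that match several features are not given in the sources used here, and the ERCC spike-in was not used here. The coordinates are those of R64, as named in the same notes.

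For each library a factor was found that turns the densities times a length into whole reads. These factors equal snoRNA size factors to within a ratio of 1.01. The recovered lengths exceeded the annotated ones for 5078 of 5860 protein-coding genes, equalled them for 766 and were below them for 16. Of all features, 1321 had under 10 reads and 12 were listed at 0 throughout.

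Log2(density + 0.0034), the pseudocount being percentile 5 of the densities, was fitted with limma 3.58.1 in R 4.3.3 over all 8 libraries, with 4 residual degrees of freedom and a median total of 9.69. A total of 11579 features were tested and 387 left out for low values. P-values were adjusted by Benjamini-Hochberg over all features tested, with a threshold of 0.05, and measure the spread between replicates that the labels call biological. The second scale divides each library by its median ratio over 5643 protein-coding genes. Alternatives changed the pseudocount, filter, scaling, libraries in the fit, variance trend and replicate block, and left out each library.

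The members and lists were chosen with earlier results of these data known. The largest rises and falls were taken from genes with an adjusted p under 0.05 and groups that do not overlap. Their mean density over all 8 libraries, ANS included, was above the median of protein-coding genes (0.359), or of the class for noncoding RNAs. The largest interactions needed the same mean density and adjusted p, and members of lists only the adjusted p. Named were the 10 largest rises and 6 largest falls as deposited and the 10 largest falls relative to protein-coding genes. The largest changes in each noncoding class and the 6 largest interactions of each sign were added. From each list came the members of smallest adjusted p, at most 3 in its main direction and 1 in the other. The decay factors, markers and stable RNAs were always named. Promoter sequences are from RefSeq R64, as 120 bases out of the 500 before the start codon, searched on both strands. A gene that the rule would name is not reported here.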

Additional observations from a re-analysis of the deposited data

Results flagged for a closer look

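The response to anisomycin relative to protein-coding genes differed between the strains, by the interaction term of limma with Benjamini-Hochberg adjustment over all features, in 84 features above 0 and 1216 below 0. A value above 0 means a higher log2 change in upf1 than in WT. Among the NMD substrates and decay factors described in the report it was -1.74 for STN1, -0.72 for EBS1 and -0.50 for ALR1. Nitrogen and arginine genes had -1.13 for ARG3, -1.34 for DAL2 and -2.06 for DAL7. Drug transporters had -1.20 for QDR3 and -1.57 for FLR1. The other genes below 0 were SRL3 at -2.35, YOL014W at -2.13, NUT2 at -2.03, ISC10 at -1.94, SLO1 at -1.93, ULI1 at -1.93, MSH5 at -1.26, ATG40 at -1.11 and ADH4 at -0.75. XUT1643 had -1.37 and XUT1453 -1.15, and the first lost its call with 5 times the pseudocount. Above 0 were SPL2 at 1.04, HXK1 at 0.99, HXT2 at 0.96, ASG7 at 0.88, MRP21 at 0.69, DDR48 at 0.68, ICY1 at 0.64, TPS2 at 0.44, MRPL15 at 0.43, MRPS5 at 0.41 and SAM2 at 0.38. Pseudogenes, looked at after their values were seen, had -1.73 for YOL153C, -1.72 for YIR043C, -1.56 for YIL167W, -1.13 for CCW22, -0.98 for YFL056C, -0.95 for YFL057C, -0.86 for FLO8 and -0.76 for SDC25.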

How the results depend on the processing

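As deposited, 10273 features rose and 31 fell. Scaled on total reads these counts were 5274 and 629, and rescaled to protein-coding genes 1980 and 2187. With the 4 upf1 libraries alone 48 fell, and 69 with the replicate block in addition, a fit chosen after seeing the data. Without 1 upf1 library, 20 to 37 fell as deposited, the counts relative to protein-coding genes were 1151 to 1325 up and 1451 to 1596 down, 2 to 3 lists had at least 50% of members rising, 1 to 3 NMD substrates rose and 4 to 6 fell. Without 1 of the 8 libraries, the interaction was above 0 in 7 to 89 features and below 0 in 378 to 1548. With no variance trend 39 features had an interaction above 0 and 3 lists rose, and on densities as deposited 22 features lay above 0. With bins by the mean density of all 8 libraries, the median change was 1.44 in the lowest bin and 0.83 in the highest, and without 1 upf1 library 1.53 to 1.59 in the lowest. Whether same-numbered libraries were handled together is not given in the sources used here. Their deviations correlated at 0.161 between the upf1 groups and at -0.039 to 0.061 between the others. With the replicate block over all 8 libraries 10336 rose and 34 fell as deposited, and relative to protein-coding genes the counts were 1951 and 2177. The 2 scales differ in sign for many called genes, as the report gives beside each list. Within a scale, under the alternatives run on it, no called value of a named feature changed sign. Over named features and settings, 2187 values as deposited stayed on the same side of the threshold, called or not, 74 lost a call and 52 gained one, and relative to protein-coding genes these numbers were 2234, 63 and 16. The cause of these changes was not tested. Features with few reads limit what the noncoding classes can show.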

Other observations

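BOP2, a gene below the abundance required of named genes and chosen after its values were seen, had densities of 0.0104 and 0.00482 with DMSO against 0.550 and 0.501 with ANS in the mutant. Ty elements, 84 features, rose in 24 and fell in 0 as deposited, and fell in 46 and rose in 1 relative to protein-coding genes.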
